A study of Mus musculus with 6 samples.

Results

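Cerebellum was compared with hippocampus in adult C57BL/6 mice, using 4 of the 6 libraries of a study of the RNA-binding protein ataxin-2. The 4 libraries are a cerebellum and a hippocampus library from Atxn2 knockout mice (homozygous, Atxn2-/-) and the same pair from wild-type mice (Atxn2+/+), and no treatment is named. The labels do not say which part of Atxn2 the allele removes. Atxn2 had 0 tags in the knockout and 167 in the wild-type cerebellum library, and 1 and 194 in hippocampus. Each library pooled RNA of 3 animals, at 6 months of age by the sample labels, whereas the protocol text that comes with them names ages of 6, 12 and 24 weeks. The study itself set knockout against wild type in cerebellum, hippocampus and liver, and the liver libraries serve here only to mark transcripts that are rich in liver.

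The cerebellum is built from a very large number of small granule neurons, which release glutamate onto the dendrites of Purkinje cells, the inhibitory output neurons of its cortex. Molecular layer interneurons, Golgi cells, unipolar brush cells and Bergmann glia complete the circuit. The hippocampus belongs to the forebrain: granule cells of the dentate gyrus excite CA3 pyramidal neurons, which excite CA1, under the control of several classes of GABA interneurons that express neuropeptides. Both regions use glutamate and GABA, but they draw on different members of the receptor, channel and transcription factor families, and the comparison below goes through these families in turn.

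The method was MACE, short for massive analysis of cDNA ends, in which 1 fragment near the 3′ end of each polyadenylated transcript is sequenced, so that a count is a count of transcripts and does not grow with their length. The libraries held 2284820 (knockout cerebellum), 2360459 (wild-type cerebellum), 2335834 (knockout hippocampus) and 2139501 (wild-type hippocampus) tags assigned to genes. Values below are CPM, which are tags per 1000000 after TMM scaling, always in the order knockout then wild type, and raw tags where a gene is near 0. A log2 ratio is cerebellum over hippocampus, so that positive values mean higher in cerebellum, and a gene is said to differ, or to be higher in one region, where its adjusted p in edgeR's quasi-likelihood test (genotype as block, Benjamini-Hochberg over all genes) was under 0.05.

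Of 12013 genes tested, 2153 were higher in cerebellum (17.9%) and 2529 higher in hippocampus (21.1%), together 39.0%. Gene lists for cell types and functions name 975 symbols, of which 924 have a row, 744 had enough tags to be tested and 576 were called, 230 higher in cerebellum and 346 in hippocampus. A gene confined to 1 region passes the tag filter through that region alone. Counts below are therefore of tested genes and not of whole lists. They are to be read beside the shares of all tested genes, 17.9% and 21.1%. Lists named for a region or its cells were drawn up with earlier results of these data known. A lean of such a list to its own region was therefore likely in advance. At a difference of at least 2-fold the numbers were 1100 (9.16%) and 1346 (11.2%), and at 32-fold or more they were 49 (0.408%) and 110 (0.916%). The titles give the animals of a genotype the same numbers in both tissues, so each p-value measures how well 2 pools agree, and the spread between single animals is not known. The size of a p-value depends on the fit. In the edgeR test the adjusted p of Camk2a was 4.01e-26 with the genotype term and 1.35e-08 without it. It was 2.72e-281 when only rows naming 1 symbol were counted. Printed exponents therefore belong to this fit and are no scale of how strong a difference is. The number of calls moved with the fit as well. DESeq2 called 749 and 1060. With 3 libraries and a genotype term no residual degree of freedom remains, so each fit that leaves out a library below lacks that term too. Such a fit called 1046 and 1253 without the knockout cerebellum library and 1016 and 1357 without the wild-type one, against 1892 and 2258 for all 4 libraries without the term. Scaling to library totals moved the median log2 ratio of all genes from -0.0036 to 0.13 and the share of calls that were higher in cerebellum from 46.0% to 57.5%, so ratios within about that shift of 0 have no firm direction.

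The hippocampus label was checked against markers, because the labels' protocol text speaks of midbrain. Some genes that define midbrain dopamine and serotonin neurons were at 0 or 1 tag in both hippocampus libraries. The dopamine transporter Slc6a3 had 0 and 1, Pitx3 had 0 and 1, and the serotonin transporter Slc6a4 had 0 and 0. Of 20 midbrain list genes with a row, 6 had 0 tags in both hippocampus libraries. The 20 summed to 69.1 and 75.7 CPM in hippocampus and to 151.5 and 200.9 in cerebellum. Of 6 tested, 3 were higher in cerebellum and 1 in hippocampus. Aldh1a1 of this list, given under other observations, was well above 1 tag in both hippocampus libraries. The forebrain factors Emx2, Tbr1 and Lhx2 were present there, as described next, and the libraries are called hippocampus as labelled. Less RNA per cell and fewer cells of a type cannot be told apart in these tissue libraries, and that holds for every gene group below.

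Tags of genes typical of other tissues were present in the libraries and were unequal between them, and their source was not tested. The 19 hepatocyte markers other than Ttr summed to 530 and 1004 CPM in cerebellum and to 512 and 2421 CPM in hippocampus, so the wild-type hippocampus library was the highest. Transcripts rich in one region were also seen in the other. The 19 genes at least 32-fold higher in cerebellum, at 50 CPM or more there, stood in hippocampus at 0.691% (knockout) and 1.6% (wild type) of their cerebellar level, and 17 of the 19 were higher in the wild-type hippocampus library than in the knockout one. The 48 genes of the same kind in hippocampus stood at 1.09% and 1.15% of their own level in cerebellum. Both groups were chosen by their ratio in the same libraries, so low percentages follow from the choice. The percentages are no measure of carried-over material. Low counts of a strong regional gene in the other region are therefore given as measured, and whether they come from cells of that region or from carried-over material was not tested.

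Transcription factors that pattern the brain separated the regions sharply. Engrailed-1 and engrailed-2 specify the midbrain and anterior hindbrain, from which the cerebellum grows. En1 (chr1:120602487-120607991, GRCm38.p6) had 21 and 23 tags in cerebellum and En2 (chr5:28165696-28172190) had 70 and 55, with 0 and 0 and 0 and 0 in hippocampus. En2 was thus at least 36.6-fold higher in cerebellum, when 0 is set to 3 tags over the 2 hippocampus libraries, and En1 at least 12.9-fold. Barhl1 (chr2:28907680-28917984), a homeobox factor of the granule neuron lineage, had 51 and 85 tags in cerebellum and 0 and 0 in hippocampus, at least 39.9-fold higher in cerebellum.

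The forebrain set was the mirror image. Lhx2 (chr2:38339271-38369737), a LIM factor needed for hippocampus formation, had 0 and 0 tags in cerebellum and 124 and 130 in hippocampus, at least 96.3-fold higher in hippocampus. Fezf2, a factor of projection neurons, had 0 and 0 tags in cerebellum and 131 and 124 in hippocampus, at least 96.6-fold. Tbr1 (chr2:61802863-61814114), a T-box factor of glutamatergic forebrain neurons, had 0 and 0 tags in cerebellum and 55 and 74 in hippocampus, at least 48.9-fold, although it had also been listed for the deep cerebellar nuclei. Emx2 and Emx1, homeobox genes of the cortex and hippocampus, had 45 and 34 and 14 and 16 tags in hippocampus and 0 in cerebellum. Since each of these genes was at 0 tags in both libraries of a region, the libraries of the 2 regions could not overlap. DESeq2 did not call En2, Barhl1, Lhx2, Tbr1 or Emx2.

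Of 37 tested genes listed as cerebellar transcription factors, 32 were higher in cerebellum and 3 higher in hippocampus (median log2 ratio 3.62, or 3.44 with genes at 0 set to their bound, against -0.0036 over all genes). Of 34 listed as telencephalic, 28 were higher in hippocampus and 1 in cerebellum (median -2.30). Both lists were drawn up by region with earlier results of these data known. In each list 6 tested genes were at 0 tags in 1 region. These counts and medians were thus favoured by the choice and are no separate support. Zic1, a zinc finger factor of the granule cell lineage, was the most abundant cerebellar factor of the plot, at 402 and 392 in cerebellum and 10.3 and 11.2 in hippocampus (log2 ratio 5.2 ± 0.19 SE, adjusted p = 9.06e-23). Pax6, which granule neurons keep expressing as adults, was at 159 and 160.2 in cerebellum and 14.8 and 21.5 in hippocampus (log2 ratio 3.14 ± 0.18 SE, adjusted p = 9.42e-17). Uncx, Tfap2b and Lhx1 had 130 and 150, 127 and 120 and 122 and 148 tags in cerebellum against 2 or 3 in the 2 hippocampus libraries together. The exceptions in the cerebellar list were Nfib, Bhlhe22 and Insm1, each higher in hippocampus, and in the telencephalic list Id2, an inhibitor of basic helix-loop-helix factors, which was higher in cerebellum (350.4 and 406 in cerebellum and 176 and 191 in hippocampus). DESeq2 called 19 of the 32 cerebellar and 17 of the 28 telencephalic factors, and of the exceptions Nfib and Insm1 were not called without the knockout or without the wild-type cerebellum library.

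**Figure D1:**
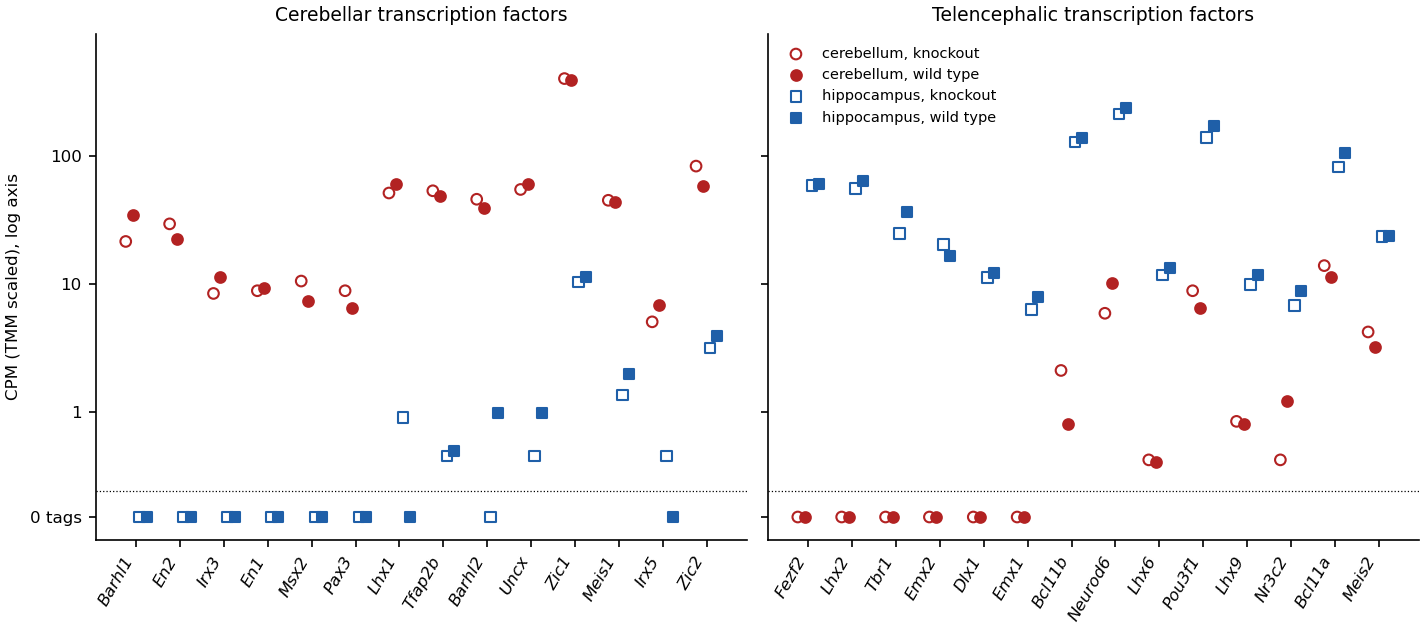
CPM on a log axis in each of the 4 libraries for the 14 genes with the largest log2 ratio in the cerebellar list (left) and the 14 with the most negative in the telencephalic list (right), without the few genes not reported here. Red circles are cerebellum, blue squares hippocampus, open symbols knockout and filled symbols wild type, and symbols under the dotted line are libraries with 0 tags. In every gene shown, both libraries of one region lie above both of the other, which the choice by ratio favours.

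Within one gene family the regions used different members. Neurod1 (chr2:79452637-79456636), a basic helix-loop-helix factor of granule neurons, was at 318 and 266 in cerebellum and 29.6 and 18.1 in hippocampus (log2 ratio 3.62 ± 0.17 SE, adjusted p = 2.1e-19). Its relative Neurod6 (chr6:55677818-55681263), a marker of pyramidal neurons, was at 5.87 and 10.1 in cerebellum and 212 and 236 in hippocampus (log2 ratio -4.8 ± 0.20 SE, adjusted p = 5.91e-21). Neurod2 had 268 and 234 CPM in cerebellum and 306 and 295 in hippocampus and did not pass the test. Meis1 and Meis2, TALE homeobox factors, also ran in opposite directions, with log2 ratios of 4.7 ± 0.37 and -2.64 ± 0.35 (SE). Bcl11b, Pou3f1 and Bcl11a were higher in hippocampus, with log2 ratios of -6.48, -4.34 and -2.88.

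Some Purkinje cell genes, such as Pcp2, were both abundant and far higher in cerebellum. Of the 23 tested genes of the Purkinje list, 21 were higher in cerebellum and 2, Itpka and Doc2b, higher in hippocampus, with a median log2 ratio of 3.32. Pcp2 (Purkinje cell protein, a regulator of G protein signalling, chr8:3623369-3625547) was at 3204 and 3509 in cerebellum and 12.1 and 36.1 in hippocampus. Both hippocampus libraries lay far below both cerebellum libraries (log2 ratio 7.18 ± 0.20 SE, adjusted p = 4.01e-26). Car8, a carbonic anhydrase-related protein that binds the IP3 receptor, was at 1035 and 1261 in cerebellum and 8.08 and 24.9 in hippocampus. The phosphatase inhibitor Ppp1r17 was at 259 and 305 in cerebellum and 3.14 and 6.35 in hippocampus. Pvalb, the calcium buffer parvalbumin, was at 2643 and 2681 in cerebellum and 99.6 and 139 in hippocampus (log2 ratio 4.49 ± 0.14 SE, adjusted p = 1.94e-24), and molecular layer interneurons express it as well.

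Several Purkinje genes also occur in the hippocampus and differed less. Calb1, the calcium buffer calbindin, which dentate granule cells share, was at 745 and 820.3 in cerebellum and 156 and 122 in hippocampus (log2 ratio 2.5 ± 0.14 SE, adjusted p = 3.1e-17). Pcp4, a calmodulin-binding peptide, was at 1792 and 1871 in cerebellum and 454 and 423 in hippocampus (log2 ratio 2.06 ± 0.12 SE, adjusted p = 1.18e-16). Itpr1, the IP3-gated calcium release channel, was at 1213 and 1457 in cerebellum and 189 and 227 in hippocampus. Slc1a6, the Purkinje glutamate transporter, was at 482 and 492 in cerebellum and 25.1 and 23.4 in hippocampus (log2 ratio 4.32 ± 0.17 SE, adjusted p = 5.41e-22). Icmt was 152 and 258 CPM in the 2 cerebellum libraries, the largest gap between them in this list among genes above 100 CPM. Rora, a nuclear receptor needed for Purkinje cell survival, was low, with 24 and 24 tags in cerebellum and 1 and 3 in hippocampus (log2 ratio 3.32 ± 0.58 SE, adjusted p = 1.17e-05). Ebf1 and Ebf2 had too few tags to be tested. Doc2b, from the same list, was no longer called with DESeq2, without the genotype term, or without the knockout cerebellum or the wild-type hippocampus library.

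The promoters of the Purkinje list were searched for AGGTCA, the core motif bound by ROR nuclear receptors, because Rora belongs to the list. The window was the 250 bases before the first listed start of each gene in RefSeq (GRCm38.p6), on both strands, and 15 of the 27 genes have an entry. Of these 15, 4 held the motif, and they are shown for that reason, 5′ to 3′ on the strand of the gene, with the match in capitals (TGACCT is the same motif on the other strand). The windows are chr8:3625548-3625797, minus strand for Pcp2, chr16:96467356-96467605, plus strand for Pcp4, chr8:70282749-70282998, plus strand for Homer3 and chr17:80307157-80307406, plus strand for Arhgef33.
Pcp2: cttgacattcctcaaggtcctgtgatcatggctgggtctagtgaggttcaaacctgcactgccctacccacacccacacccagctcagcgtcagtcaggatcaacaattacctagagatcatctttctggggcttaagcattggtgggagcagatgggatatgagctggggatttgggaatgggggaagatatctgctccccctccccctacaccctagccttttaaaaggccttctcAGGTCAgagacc
Pcp4: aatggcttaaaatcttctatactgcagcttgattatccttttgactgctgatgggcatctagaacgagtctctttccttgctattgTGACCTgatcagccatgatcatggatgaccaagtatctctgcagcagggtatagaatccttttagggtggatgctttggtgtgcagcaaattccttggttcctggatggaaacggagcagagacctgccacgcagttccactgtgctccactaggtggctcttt
Homer3: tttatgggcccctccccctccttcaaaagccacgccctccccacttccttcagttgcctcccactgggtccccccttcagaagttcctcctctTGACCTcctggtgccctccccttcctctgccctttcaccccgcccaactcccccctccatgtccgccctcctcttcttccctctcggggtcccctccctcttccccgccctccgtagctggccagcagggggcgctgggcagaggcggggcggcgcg
Arhgef33: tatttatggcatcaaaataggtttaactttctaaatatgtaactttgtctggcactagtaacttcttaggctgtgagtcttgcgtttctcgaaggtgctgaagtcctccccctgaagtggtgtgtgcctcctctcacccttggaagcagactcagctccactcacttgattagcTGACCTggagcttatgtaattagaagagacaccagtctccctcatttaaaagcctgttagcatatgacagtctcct

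The match in Pcp2 began 12 bases before the start, that in Arhgef33 76, that in Homer3 157 and that in Pcp4 164. AGGTCA stood in 13.8% of 27025 promoters of the table, in 10.2% of the 8457 of tested genes, in 12.7% of 267 promoters of genes called at least 4-fold higher in cerebellum and in 8.0% of 375 of genes at least 4-fold higher in hippocampus. Other motifs searched gave shares of 9.74% and 11.7% for CAGATG, an E-box bound by NeuroD factors, and 16.5% and 19.2% for TGACG, the core of the cyclic AMP response element, in the same 2 sets. Among all tested genes those shares were 9.5% and 27.9%. A match is a run of letters, and no binding was measured.

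Granule neuron genes gave the other large cerebellar group: 21 of 24 tested were higher in cerebellum and 2 higher in hippocampus, with a median log2 ratio of 3.24. Cbln1 (chr8:87468853-87472592), the secreted organizer of parallel fibre synapses, was at 817 and 753 in cerebellum and 6.28 and 15.6 in hippocampus (log2 ratio 6.18 ± 0.21 SE, adjusted p = 1.08e-23), and its partner Cbln3 (chr14:55878920-55884256) at 434 and 418 in cerebellum and 3.14 and 4.88 in hippocampus (log2 ratio 6.72 ± 0.22 SE, adjusted p = 6.02e-24). Chn2, a Rac-inactivating protein, was at 739 and 734 in cerebellum and 22.4 and 32.7 in hippocampus. Etv1, an activity-dependent ETS factor, was at 279 and 240.1 in cerebellum and 84.8 and 80.6 in hippocampus (log2 ratio 1.65 ± 0.14 SE, adjusted p = 3.67e-12). Slc17a7, the vesicular glutamate transporter of granule neurons and of forebrain excitatory neurons alike, was higher in hippocampus, at 1112 and 1098 in cerebellum and 3203 and 3374 in hippocampus (log2 ratio -1.57 ± 0.11 SE, adjusted p = 3.07e-14). Rbfox3, the neuronal nuclear antigen NeuN, differed little, at 1219 and 1083 in cerebellum and 814 and 746 in hippocampus (log2 ratio 0.56 ± 0.12 SE, adjusted p = 0.000179). The Rbfox3 call was lost without the knockout or without the wild-type cerebellum library.

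Smaller cerebellar cell classes were seen too. Of 16 tested markers of cerebellar interneurons and unipolar brush cells, 10 were higher in cerebellum and 3 in hippocampus. Of those 3, DESeq2 called none and the fit without the wild-type cerebellum library 1. Eomes, a T-box factor of unipolar brush cells, had 35 and 48 tags in cerebellum and 1 and 2 in hippocampus, 24.3-fold (95% counting interval 8.04 to 120.4) higher in cerebellum. Among Bergmann glia markers 9 of 14 were higher in cerebellum and 2 in hippocampus. Gdf10, a secreted factor of Bergmann glia, was at 99.4 and 118 in cerebellum and 10.8 and 16.6 in hippocampus (log2 ratio 2.99 ± 0.20 SE, adjusted p = 4.1e-15). Sept4 was at 797 and 831 in cerebellum and 193 and 204 in hippocampus (log2 ratio 2.03 ± 0.13 SE, adjusted p = 9.6e-16). A2m, a protease inhibitor, was at 72.6 and 84.7 in cerebellum and 0.897 and 2.93 in hippocampus. The 2 that went the other way, Gria1 and Npy, are also made by hippocampal neurons.

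Genes of hippocampal and forebrain excitatory neurons had the most extreme median of the 40 lists. Of 25 tested markers of forebrain excitatory neurons, 23 were higher in hippocampus and none in cerebellum, with a median log2 ratio of -5.56 (-4.80 with genes at 0 set to their bound). Nrgn (chr9:37544493-37552745), neurogranin, a calmodulin-binding substrate of protein kinase C in dendrites, was at 23.1 and 25.8 in cerebellum and 4011 and 4366 in hippocampus (log2 ratio -7.42 ± 0.16 SE, adjusted p = 2.22e-29). Camk2a, the alpha subunit of calmodulin kinase II, was at 38.6 and 42 in cerebellum and 1702 and 2473 in hippocampus (log2 ratio -5.68 ± 0.16 SE, adjusted p = 4.01e-26). Ddn, dendrin, was at 1.26 and 1.61 in cerebellum and 622 and 960.1 in hippocampus (log2 ratio -9.05 ± 0.24 SE, adjusted p = 2.87e-26). Icam5, a telencephalic adhesion molecule, was at 0.42 and 1.61 in cerebellum and 303 and 285 in hippocampus. Kcnj4, an inward rectifier potassium channel, had 0 and 0 tags in cerebellum and 209 and 200 in hippocampus, at least 155-fold higher in hippocampus. The 2 markers that did not pass the test were Neurod2 and Etv6. Kcnj4 was not called by DESeq2.

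Markers of single hippocampal fields went the same way. Of 19 tested CA1 and CA3 markers 17 were higher in hippocampus and none in cerebellum (median -2.33). Fibcd1, a CA1 marker, had 1 and 3 tags in cerebellum and 345 and 336 in hippocampus, 194-fold (95% counting interval 75.2 to 712) higher in hippocampus, and Crym, a thyroid hormone-binding protein, 3 and 3 tags in cerebellum and 943 and 776 in hippocampus (log2 ratio -8.28 ± 0.26 SE, adjusted p = 1.06e-24). Hs3st4, a heparan sulfate sulfotransferase, was at 2.94 and 3.63 in cerebellum and 171 and 241 in hippocampus. Wfs1, which marks CA1 in histology, differed less, at 36.1 and 40.3 in cerebellum and 91.5 and 86.4 in hippocampus (log2 ratio -1.22 ± 0.17 SE, adjusted p = 1.93e-07). Of 17 tested dentate granule cell markers 12 were higher in hippocampus and 4 in cerebellum (median -2.06). C1ql2 (chr1:120340582-120343174), a C1q-like protein of mossy fibres, was at 0.42 and 1.21 in cerebellum and 164 and 144 in hippocampus (log2 ratio -7.45 ± 0.31 SE, adjusted p = 4.16e-21). Dsp, desmoplakin, was at 0.839 and 0.807 in cerebellum and 44 and 25.4 in hippocampus (log2 ratio -5.3 ± 0.43 SE, adjusted p = 9e-13). The 4 exceptions were Calb1, Il16, Penk and Plk5, of which Calb1 and Penk are also known from cerebellar neurons. Prox1, the factor that specifies dentate granule cells, had few tags, 8 and 4 tags in cerebellum and 13 and 16 in hippocampus (log2 ratio -1.44 ± 0.50 SE, adjusted p = 0.0208). The Prox1 call was lost with DESeq2 and in each fit that left out a library, except the fit without the knockout hippocampus library, and Plk5 was not called by DESeq2.

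The GABA synthesis genes Gad1 and Gad2 differed less between the 2 regions than the interneuron peptide genes Sst and Vip. The libraries are of whole tissue, so the values are not those of interneurons alone. Gad1, which makes GABA, was at 264 and 291 in cerebellum and 189.8 and 197 in hippocampus (log2 ratio 0.52 ± 0.13 SE, adjusted p = 0.00169), while Gad2 was at 122 and 151 in cerebellum and 136 and 143 in hippocampus and did not pass the test. Slc32a1, which loads GABA into vesicles, was higher in cerebellum at 208 and 211 in cerebellum and 75.4 and 87.4 in hippocampus (log2 ratio 1.37 ± 0.14 SE, adjusted p = 4.88e-10). Reln, the extracellular protein reelin, which cerebellar granule neurons also secrete, was at 292 and 323 in cerebellum and 66.9 and 52.3 in hippocampus (log2 ratio 2.37 ± 0.15 SE, adjusted p = 1.46e-15). Sst, somatostatin, was at 4.2 and 7.67 in cerebellum and 347 and 266 in hippocampus (log2 ratio -5.66 ± 0.22 SE, adjusted p = 5.9e-22). Of the 24 interneuron list genes with a row, 9 had 0 tags in both cerebellum libraries. Among these 9, the factor Dlx1 had 25 and 25 tags in hippocampus, the receptor Htr3a 21 and 21 and the peptide Vip 22 and 11. That puts these genes at least 18.9-, 15.9- and 12.5-fold higher in hippocampus. The receptor Cnr1, also on this list, was higher in cerebellum. In all, 10 of 19 tested interneuron markers were higher in hippocampus and 7 in cerebellum. Gad1 was not called by DESeq2 or without either of the cerebellum libraries, and Vip not by DESeq2.

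Glial and vascular lists differed by smaller factors. Microglia and macrophage genes stood higher in hippocampus in 16 of 18 tested, with none higher in cerebellum and a median log2 ratio of -1.08. The fractalkine receptor Cx3cr1 was at 27.7 and 30.3 in cerebellum and 61.5 and 83 in hippocampus (log2 ratio -1.31 ± 0.18 SE, adjusted p = 2.39e-07), the purine receptor P2ry12 at 11.3 and 12.1 in cerebellum and 34.6 and 37.1 in hippocampus (log2 ratio -1.61 ± 0.25 SE, adjusted p = 1.88e-06). Tmem119 was at 15.5 and 11.7 in cerebellum and 38.1 and 45.9 in hippocampus (log2 ratio -1.62 ± 0.24 SE, adjusted p = 7.31e-07). The growth factor receptor Csf1r was at 45.3 and 64.2 in cerebellum and 122 and 137 in hippocampus. The 2 that did not pass were Mrc1 and Itgam. The count was 8 with DESeq2, and 11 or 12 without the knockout or the wild-type cerebellum library, with none higher in cerebellum in any of these fits.

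Myelin genes were somewhat higher in cerebellum: 16 of 27 were called in that direction and 1, Olig1, in the other, with a median of 0.47. Mbp, myelin basic protein, was at 3177 and 4745 in cerebellum and 2077 and 2803 in hippocampus (log2 ratio 0.69 ± 0.11 SE, adjusted p = 2.44e-06), Cnp at 739 and 827 in cerebellum and 421 and 440.0 in hippocampus and Mag at 98.2 and 88.4 in cerebellum and 50.7 and 52.3 in hippocampus. The wild-type cerebellum library was the highest for Mbp. The count in cerebellum was 7 with DESeq2 or without the knockout cerebellum library, and 8 without the wild-type one, and it was 10 without the knockout hippocampus library. The Mbp call was lost without the wild-type cerebellum library and with all 6 libraries in one fit, and that of Olig1 in 6 alternatives. Oligodendrocyte precursors went the other way, with 6 of 9 tested markers higher in hippocampus and none in cerebellum, among them the growth factor receptor Pdgfra (4.62 and 9.68 in cerebellum and 20.6 and 18.1 in hippocampus) and the proteoglycan Cspg4 (7.55 and 8.88 in cerebellum and 21.1 and 24.9 in hippocampus). DESeq2 called 1 of these 6, neither Pdgfra nor Cspg4. The count was 3 without the knockout or the wild-type cerebellum library, and Pdgfra was not called without the knockout one.

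Astrocyte genes were split, 13 higher in cerebellum and 8 higher in hippocampus of 26. S100b, a calcium-binding protein, was at 1841 and 2059 in cerebellum and 426 and 431 in hippocampus (log2 ratio 2.18 ± 0.12 SE, adjusted p = 2.3e-17). The glycolytic enzyme Aldoc was at 3097 and 3109 in cerebellum and 1285 and 1324 in hippocampus (log2 ratio 1.25 ± 0.11 SE, adjusted p = 9.66e-12). The 2 main astroglial glutamate transporters ran in opposite directions: Slc1a3 (GLAST) was at 797 and 865 in cerebellum and 459 and 474 in hippocampus (log2 ratio 0.83 ± 0.12 SE, adjusted p = 5.77e-07). Slc1a2 (GLT-1) was at 325 and 350.2 in cerebellum and 1297 and 1583 in hippocampus (log2 ratio -2.09 ± 0.12 SE, adjusted p = 1.47e-16). Gfap, the intermediate filament of astrocytes, was higher in hippocampus at 123 and 139 in cerebellum and 292 and 355 in hippocampus (log2 ratio -1.3 ± 0.13 SE, adjusted p = 3.96e-10). The count in hippocampus was 3 with DESeq2, 2 without the knockout or without the wild-type cerebellum library, and 5 without the knockout hippocampus library.

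Endothelial and pericyte genes gave 4 calls of 21 in cerebellum and none in hippocampus, a share close to the 17.9% of all genes. With DESeq2, or without the knockout or the wild-type cerebellum library, 1 was called. Choroid plexus and ependyma genes were higher in cerebellum in 9 of 16, and in 4 with DESeq2 or without the wild-type cerebellum library. Ttr, transthyretin, made by the choroid plexus, was at 3327 and 4770 in cerebellum and 190.3 and 524 in hippocampus (log2 ratio 3.64 ± 0.15 SE, adjusted p = 4.8e-21). In each region the wild-type library held more Ttr than the knockout one, which was not tested. Ttr is on the hepatocyte list as well. Folr1, a folate receptor, had 42 and 81 tags in cerebellum and 4 and 4 in hippocampus, and Kcnj13, a potassium channel of the same epithelium, 30 and 37 tags in cerebellum and 2 and 0 in hippocampus. Ciliary genes of ependyma such as Foxj1 did not pass the test, at 10.1 and 13.3 in cerebellum and 11.2 and 12.7 in hippocampus. Globin genes stood higher in cerebellum (Hbb-b1 at 217 and 186 in cerebellum and 57 and 32.2 in hippocampus and Alas2 at 21.8 and 17.4 in cerebellum and 5.38 and 3.91 in hippocampus), and 6 of 8 tested genes of the red blood cell list were called in that direction. Tags of near-identical globin copies were split or joint in the counting, so single globin values are uncertain.

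**Figure D2:**
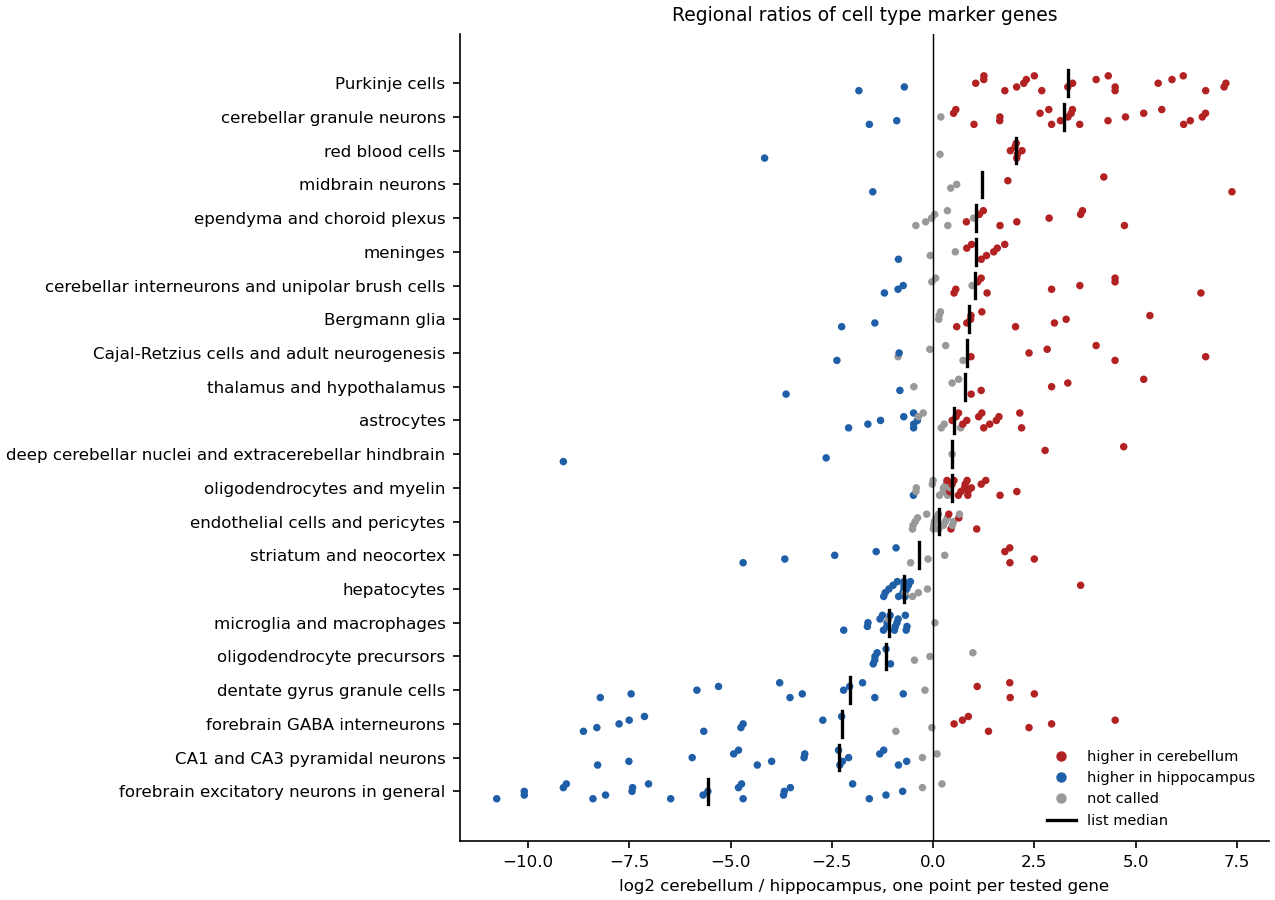
Log2 ratio of cerebellum to hippocampus for each tested gene (points) of 22 cell type marker lists, ordered by list median (black bars); red points were higher in cerebellum, blue higher in hippocampus and grey not called. Medians run from 3.32 for Purkinje cells to -5.56 for forebrain excitatory neurons, and the fitted ratios of genes at 0 tags in 1 region, such as the leftmost points, depend on a small prior count.

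Receptor subunits of the same family often ran in opposite directions. GABA-A receptors are pentameric chloride channels, and the alpha subunit sets their pharmacology and place in the synapse. Gabra6 (chr11:42306437-42321072), the alpha-6 subunit of cerebellar granule neurons, was at 759 and 836 in cerebellum and 4.04 and 12.2 in hippocampus (log2 ratio 6.64 ± 0.21 SE, adjusted p = 2.32e-24). Gabra5 (chr7:57407669-57591016), the alpha-5 subunit of extrasynaptic receptors in pyramidal neurons, was at 1.68 and 3.23 in cerebellum and 180.4 and 229 in hippocampus (log2 ratio -6.35 ± 0.24 SE, adjusted p = 5.9e-22). Gabrd, the delta subunit that pairs with alpha-6 in granule neurons and with alpha-4 in dentate granule cells, was at 254 and 234 in cerebellum and 38.6 and 28.8 in hippocampus (log2 ratio 2.86 ± 0.16 SE, adjusted p = 3.38e-17). Gabra4 was higher in hippocampus at 18 and 23.8 in cerebellum and 78.5 and 60.1 in hippocampus (log2 ratio -1.72 ± 0.20 SE, adjusted p = 7.85e-09).

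Of 15 GABA-A subunits with a row 12 were tested, and these 12 differed, 4 higher in cerebellum and 8 in hippocampus. Gabrb2, a widely used beta subunit, was at 222 and 232 in cerebellum and 159.7 and 196 in hippocampus, a small difference (log2 ratio 0.36 ± 0.13 SE, adjusted p = 0.0324). Gabra2, Gabra3 and Gabrb1 had log2 ratios between -1.98 and -1.6. DESeq2 called 3 and 4 of the 12, and the 8 in hippocampus became 5 without the knockout cerebellum or the wild-type hippocampus library and 4 without the wild-type cerebellum library. Gabrb2 and Gabra2 lost their calls in 6 and 4 alternatives, and Gabrb1 with DESeq2 or without the wild-type cerebellum library. Genes of GABA-B receptors and of inhibitory synapses gave 6 calls in cerebellum and 3 in hippocampus of 17, against 17.9% and 21.1% of all genes. The 6 became 3 with DESeq2 and without the knockout or the wild-type cerebellum library. The 2 GABA-B subunits did not pass the test: Gabbr1 was at 433 and 491 in cerebellum and 475 and 488 in hippocampus and Gabbr2 at 13.8 and 10.9 in cerebellum and 14.4 and 10.7 in hippocampus. Kctd8, an auxiliary subunit of GABA-B receptors, was higher in cerebellum at 28.5 and 34.7 in cerebellum and 6.73 and 3.91 in hippocampus (log2 ratio 2.54 ± 0.31 SE, adjusted p = 2.08e-08). Slc6a9, a glycine transporter, was at 94.4 and 102 in cerebellum and 23.3 and 28.3 in hippocampus (log2 ratio 1.93 ± 0.18 SE, adjusted p = 2.21e-11).

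Among ionotropic glutamate receptors 2 of 13 tested were higher in cerebellum and 8 in hippocampus, against 17.9% and 21.1% of all genes. Gria4 (chr9:4417893-4796234), an AMPA receptor subunit of granule neurons and Bergmann glia, was at 377 and 357 in cerebellum and 41.7 and 33.7 in hippocampus (log2 ratio 3.28 ± 0.16 SE, adjusted p = 2.96e-19). The other AMPA subunits went the opposite way, Gria1 at 188 and 177 in cerebellum and 453 and 539 in hippocampus (log2 ratio -1.44 ± 0.13 SE, adjusted p = 2.72e-11), Gria2, which makes the channel impermeable to calcium, at 234 and 227 in cerebellum and 709.9 and 743 in hippocampus, and Gria3 at 55.8 and 72.2 in cerebellum and 141 and 162 in hippocampus. NMDA receptors split in the same manner. Grin1, the subunit that all of them contain, was at 335 and 363 in cerebellum and 504 and 518 in hippocampus (log2 ratio -0.55 ± 0.13 SE, adjusted p = 0.000489). Grin2c (chr11:115249169-115267297), the form of mature granule neurons, was at 130.5 and 126 in cerebellum and 15.3 and 26.4 in hippocampus (log2 ratio 2.64 ± 0.19 SE, adjusted p = 3.63e-14), and Grin2b (chr6:135713221-136173615), the form of forebrain neurons, at 7.55 and 3.23 in cerebellum and 158 and 190.0 in hippocampus (log2 ratio -5.0 ± 0.23 SE, adjusted p = 1.7e-19). Grin2a had 4 and 2 tags in cerebellum and 6 and 2 in hippocampus, too few for the test. Tags on genomic contigs were assigned to no gene, and whether any of them belong to Grin2a was not tested. Kainate receptor genes Grik4 and Grik5 were higher in hippocampus (log2 ratios -2.24 and -1.76), and Grik1, Grik2 and Grik3 did not pass. The Grin1 call was lost without the knockout or without the wild-type cerebellum library.

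Auxiliary proteins of AMPA and kainate receptors gave 4 calls in cerebellum and 12 in hippocampus of 19, against 17.9% and 21.1% of all genes. Cacng2, stargazin, which delivers AMPA receptors to granule neuron synapses, was at 467 and 508 in cerebellum and 181 and 213 in hippocampus (log2 ratio 1.31 ± 0.13 SE, adjusted p = 1.5e-10). Cacng5 was at 58.3 and 49.6 in cerebellum and 4.04 and 5.37 in hippocampus (log2 ratio 3.51 ± 0.28 SE, adjusted p = 6.35e-13). Their relative Cacng3 was higher in hippocampus at 10.1 and 4.84 in cerebellum and 53.8 and 58.1 in hippocampus (log2 ratio -2.91 ± 0.26 SE, adjusted p = 1.17e-11). The cornichon proteins Cnih2 and Cnih3, which slow AMPA receptor gating, were at 86 and 136 in cerebellum and 1479 and 1348 in hippocampus and at 5.45 and 7.26 in cerebellum and 113 and 90.3 in hippocampus respectively. For the kainate receptor partners, Neto1 had 0 and 1 tags in cerebellum and 40 and 37 in hippocampus, 87.5-fold (95% counting interval 15.2 to 3502) higher in hippocampus, while Neto2 was higher in cerebellum at 53.3 and 66.6 in cerebellum and 35.4 and 23.9 in hippocampus (log2 ratio 1.01 ± 0.20 SE, adjusted p = 9.35e-05). Neto2 was not called by DESeq2 or without the wild-type cerebellum library.

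Metabotropic glutamate receptors of group I signal through Homer scaffolds, phospholipase C beta and IP3 receptors, and the scaffold and phospholipase steps each showed a regional pair. Grm5 (chr7:87583981-88135063), a group I receptor of forebrain neurons, was at 6.29 and 5.25 in cerebellum and 214 and 206 in hippocampus (log2 ratio -5.17 ± 0.21 SE, adjusted p = 2.5e-21). Homer3 was at 454 and 629 in cerebellum and 113 and 114 in hippocampus (log2 ratio 2.24 ± 0.14 SE, adjusted p = 1.07e-15), while Homer1 and Homer2 were higher in hippocampus with log2 ratios of -1.58 and -2.07. Plcb4 was at 92.7 and 71 in cerebellum and 7.18 and 7.81 in hippocampus (log2 ratio 3.44 ± 0.24 SE, adjusted p = 8.26e-15). Plcb1 was at 45.7 and 49.6 in cerebellum and 169 and 139.7 in hippocampus (log2 ratio -1.69 ± 0.16 SE, adjusted p = 1.99e-11). Itpr1, given above, and Itpr3 were higher in cerebellum, with log2 ratios of 2.68 and 2.45, and Itpr2 did not pass. The protein kinase C genes Prkca, Prkcb and Prkce were higher in hippocampus (log2 ratios -2.08, -0.55 and -1.88) and Prkcd higher in cerebellum (1.19). In all, 7 of the 19 tested genes of this list were higher in cerebellum and 10 in hippocampus. Without the wild-type cerebellum library Prkcb and Prkcd were not called, and Prkcb was also not called without the knockout cerebellum library or with all 6 libraries in one fit.

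**Figure D3:**
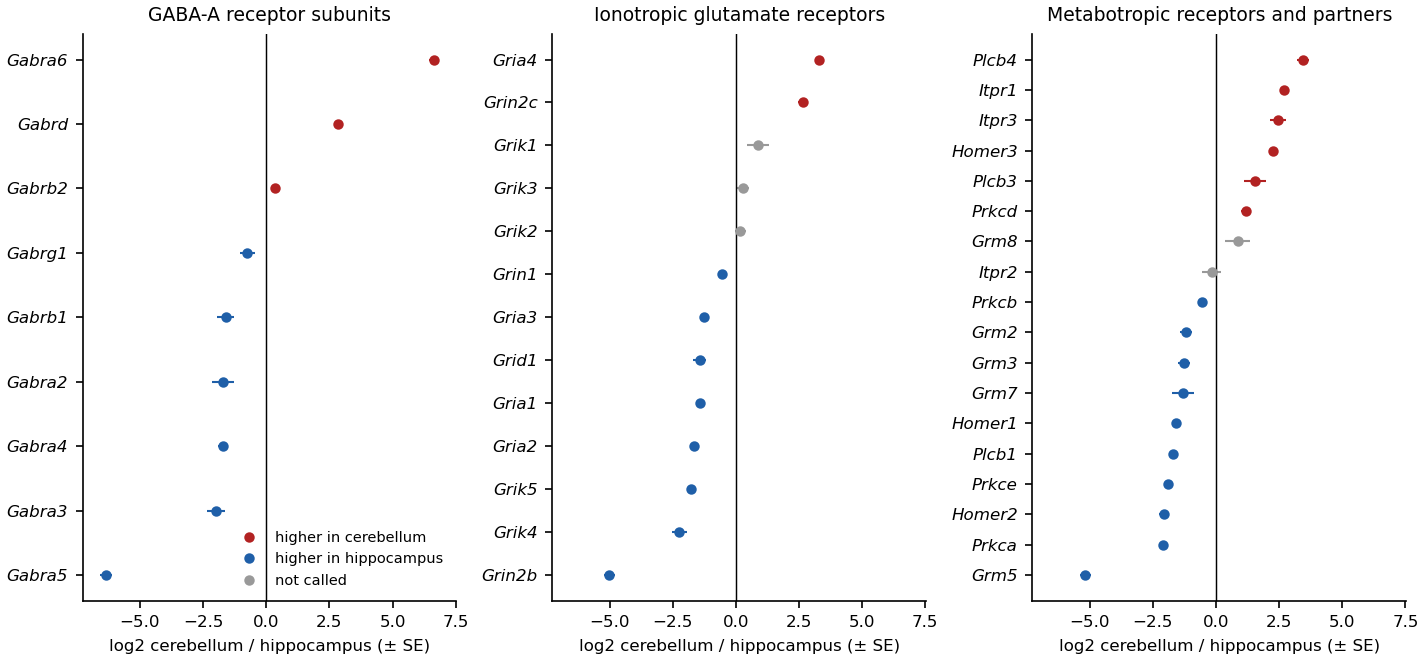
Log2 ratio of cerebellum to hippocampus with its SE (bars) for tested GABA-A subunits (left), ionotropic glutamate receptors (middle) and metabotropic receptors or partners (right), without the few genes not reported here. Gabra6 at 6.64 and Gabra5 at -6.35, Gria4 at 3.28 and Grin2b at -5.0, and Plcb4 at 3.44 and Grm5 at -5.17 mark the ends of the 3 families.

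Potassium channels split almost evenly: 20 of 49 tested were higher in cerebellum and 17 higher in hippocampus. Kcnc1, a Kv3 family channel of fast-firing neurons, was at 879 and 934 in cerebellum and 171 and 196 in hippocampus (log2 ratio 2.3 ± 0.13 SE, adjusted p = 3.7e-17). Its relative Kcnc2, known from fast-spiking forebrain interneurons, had 3 and 9 tags in cerebellum and 79 and 83 in hippocampus (log2 ratio -3.93 ± 0.35 SE, adjusted p = 8.33e-12). Kcnk3, a leak channel of granule neurons, was at 249 and 228 in cerebellum and 19.7 and 23.4 in hippocampus (log2 ratio 3.47 ± 0.17 SE, adjusted p = 9.54e-19). The sodium-activated channel Kcnt1 was at 208 and 221 in cerebellum and 25.1 and 19 in hippocampus (log2 ratio 3.27 ± 0.17 SE, adjusted p = 6.55e-18). Kcng4, a silent subunit that joins other Kv channels, was at 133 and 168 in cerebellum and 6.28 and 5.86 in hippocampus (log2 ratio 4.61 ± 0.22 SE, adjusted p = 3.96e-19). Kcnj12, an inward rectifier, was at 106 and 103 in cerebellum and 3.59 and 7.81 in hippocampus, with further tags in a feature shared with another gene.

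Hippocampal potassium channel genes included the M-channel subunit Kcnq5, at 1.68 and 1.21 in cerebellum and 47.1 and 45.9 in hippocampus (log2 ratio -4.96 ± 0.36 SE, adjusted p = 4.69e-14). Kcnv1, a silent subunit, had 0 and 1 tags in cerebellum and 79 and 72 in hippocampus, 172-fold (95% counting interval 30.4 to 6825) higher in hippocampus. Kcnh3, an ether-a-go-go type channel of the forebrain, was at 1.26 and 1.21 in cerebellum and 57.4 and 55.2 in hippocampus (log2 ratio -5.45 ± 0.35 SE, adjusted p = 1.7e-15). Kcna4 was at 1.26 and 1.61 in cerebellum and 15.3 and 29.8 in hippocampus (log2 ratio -3.92 ± 0.43 SE, adjusted p = 1.76e-09). Accessory subunits split as well, with Kcnab3 higher in cerebellum (log2 ratio 1.15) and Kcnab2 higher in hippocampus (-2.59). Kcne2 and Kcnj13 had the 2 highest ratios of the list, at 41 and 46 and 30 and 37 tags in cerebellum. Both are known from choroid plexus, and Kcnj13 is also on the choroid plexus list. Whether their tags come from choroid plexus was not tested. The calcium-activated channel Kcnma1 and Kcnd3, at 80.6 and 80.3 in cerebellum and 75.8 and 83 in hippocampus and 81.8 and 81.5 in cerebellum and 80.8 and 80.6 in hippocampus, did not pass the test. DESeq2 called 13 in each direction, and not Kcnab3.

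Of 36 sodium, calcium, HCN and TRP channel genes 9 were higher in cerebellum and 15 in hippocampus. Cacna1a, the P/Q-type calcium channel of Purkinje cells, was at 298 and 330.1 in cerebellum and 111 and 124 in hippocampus (log2 ratio 1.42 ± 0.14 SE, adjusted p = 6.31e-11). Its beta subunit Cacnb4 was at 262 and 273 in cerebellum and 92 and 88.4 in hippocampus (log2 ratio 1.57 ± 0.14 SE, adjusted p = 9.72e-12), while Cacnb3 was at 69.2 and 75.9 in cerebellum and 407 and 397 in hippocampus (log2 ratio -2.47 ± 0.14 SE, adjusted p = 6.96e-17). The T-type channels ran in opposite directions: Cacna1g was at 144 and 165 in cerebellum and 24.2 and 29.8 in hippocampus (log2 ratio 2.51 ± 0.17 SE, adjusted p = 4.22e-15). Cacna1h was at 0.839 and 1.21 in cerebellum and 60.6 and 67.4 in hippocampus (log2 ratio -5.89 ± 0.35 SE, adjusted p = 1.94e-16). The alpha-2-delta subunits did so too: Cacna2d2 was at 45.7 and 53.7 in cerebellum and 4.49 and 9.77 in hippocampus (log2 ratio 2.82 ± 0.27 SE, adjusted p = 5.18e-11). Cacna2d1 was at 29.4 and 32.7 in cerebellum and 169 and 174 in hippocampus (log2 ratio -2.47 ± 0.16 SE, adjusted p = 1.96e-15). Among sodium channels Scn1a was higher in cerebellum at 72.6 and 77.9 in cerebellum and 36.8 and 39.1 in hippocampus (log2 ratio 0.99 ± 0.17 SE, adjusted p = 1.32e-05), Scn3a and the accessory Scn3b higher in hippocampus at 2.52 and 4.44 in cerebellum and 91.5 and 70.3 in hippocampus and 2.94 and 1.61 in cerebellum and 204 and 257 in hippocampus, and Scn2a1 did not pass. Trpc6 had 1 and 1 tags in cerebellum and 67 and 47 in hippocampus, 64.8-fold (95% counting interval 17.5 to 542) higher in hippocampus. The pacemaker channels Hcn2 and Hcn3 did not pass the test.

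Receptors for amines, acetylcholine, opioids and cannabinoids were mostly hippocampal or too low to test. Of 47 with a value 19 were tested, 12 of them higher in hippocampus and 2 in cerebellum. The 12 became 6 with DESeq2, 7 without the knockout cerebellum library and 8 without the wild-type cerebellum or the knockout hippocampus library. Chrm1, the M1 muscarinic receptor of pyramidal neurons, was at 0.839 and 0.403 in cerebellum and 248 and 229 in hippocampus, 387-fold (95% counting interval 132 to 1879) higher in hippocampus. Htr1a, a serotonin receptor, had 0 and 0 tags in cerebellum and 44 and 37 in hippocampus, at least 30.7-fold higher. The 2 higher in cerebellum were Cnr1, the cannabinoid receptor of axon terminals, at 277 and 279 in cerebellum and 143 and 162 in hippocampus (log2 ratio 0.87 ± 0.13 SE, adjusted p = 1.66e-06), and the nicotinic subunit Chrnb2 at 70.1 and 87.6 in cerebellum and 57.9 and 57.6 in hippocampus (log2 ratio 0.44 ± 0.16 SE, adjusted p = 0.0286). The Chrnb2 call was lost with DESeq2, without the genotype term, with all 6 libraries in one fit and without any 1 library. The adenosine receptor Adora1 was at 308 and 318 in cerebellum and 293 and 349 in hippocampus and did not pass.

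Neuropeptide genes leaned to the hippocampus, with 22 of 29 tested higher there and 3 in cerebellum (median -2.72). DESeq2 called 11 of the 22, and not Npy2r or Crhbp. Cck, cholecystokinin, was at 163 and 162 in cerebellum and 1059 and 1085 in hippocampus (log2 ratio -2.72 ± 0.13 SE, adjusted p = 3.46e-19), Npy, neuropeptide Y, at 31.1 and 50.8 in cerebellum and 215 and 175 in hippocampus (log2 ratio -2.26 ± 0.17 SE, adjusted p = 2.3e-13). Vgf was at 8.39 and 10.1 in cerebellum and 66.4 and 73.3 in hippocampus (log2 ratio -2.91 ± 0.23 SE, adjusted p = 2.46e-13). Their partners in signalling included Npy1r at 4.62 and 2.42 in cerebellum and 26 and 31.7 in hippocampus (log2 ratio -3.02 ± 0.35 SE, adjusted p = 3.72e-09) and Npy2r with 0 and 0 tags in cerebellum and 66 and 33 in hippocampus, at least 37.5-fold higher in hippocampus. Crhbp, which binds corticotropin-releasing hormone, had 0 and 0 tags in cerebellum and 53 and 40 in hippocampus, at least 35.2-fold, while the receptor Crhr1 was higher in cerebellum at 29.8 and 27 in cerebellum and 3.59 and 5.37 in hippocampus (log2 ratio 2.66 ± 0.33 SE, adjusted p = 2e-08). Penk, proenkephalin, known from Golgi cells, was at 219.9 and 204 in cerebellum and 50.3 and 64.5 in hippocampus (log2 ratio 1.89 ± 0.15 SE, adjusted p = 7.81e-13). The granin genes Chga and Chgb did not pass the test.

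Calcium handling is a trait in which Purkinje cells and pyramidal neurons both stand out, and 41 of 45 tested genes of that list differed, 18 higher in cerebellum and 23 in hippocampus. Calmodulin kinases were divided. Camk4, a nuclear kinase of granule neurons, was at 686 and 704 in cerebellum and 146 and 136 in hippocampus (log2 ratio 2.3 ± 0.13 SE, adjusted p = 8.37e-17). Camk2d was at 97.8 and 114 in cerebellum and 25.1 and 24.9 in hippocampus (log2 ratio 2.07 ± 0.18 SE, adjusted p = 3.6e-12), while Camk2a, given above, Camk2b at 485 and 439 in cerebellum and 899.7 and 1047 in hippocampus and Camk1d at 29.4 and 33.9 in cerebellum and 124 and 151 in hippocampus were higher in hippocampus. The activating kinases split likewise, with log2 ratios of 0.84 for Camkk2 and -1.88 for Camkk1. Hpca, hippocalcin, a neuronal calcium sensor, was at 109 and 102 in cerebellum and 2980 and 2626 in hippocampus (log2 ratio -4.73 ± 0.14 SE, adjusted p = 1.47e-25), and its relatives Hpcal4 at 15.9 and 14.1 in cerebellum and 438 and 241 in hippocampus and Hpcal1 at 370.1 and 427 in cerebellum and 70 and 67.9 in hippocampus, the last higher in cerebellum (log2 ratio 2.53 ± 0.15 SE, adjusted p = 6.5e-17). Camkv, a kinase-like protein of dendritic spines, was at 9.23 and 12.1 in cerebellum and 1093 and 1053 in hippocampus (log2 ratio -6.64 ± 0.18 SE, adjusted p = 4.01e-26). Of the calcium pumps, Atp2a3 at 49.1 and 54.5 in cerebellum and 2.69 and 3.42 in hippocampus and Atp2b2 at 282 and 307 in cerebellum and 169 and 206 in hippocampus were higher in cerebellum and Atp2b1 at 173 and 164 in cerebellum and 673 and 826 in hippocampus in hippocampus. The calmodulin genes Calm2 and Calm3 had smaller log2 ratios of -0.39 and -1.06. Camkk2 and Atp2b2 were not called without the wild-type cerebellum library, and the Calm2 call was lost in 5 alternatives, scaling to library totals among them.

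Synaptic organizers gave 7 calls in cerebellum and 18 in hippocampus of 31, against 17.9% and 21.1% of all genes. C1q family members were divided between the regions: Cbln1 and Cbln3 stood in cerebellum as given above, and C1ql2, C1ql3 at 4.62 and 3.63 in cerebellum and 73.6 and 42.5 in hippocampus and Cbln2 with 0 and 1 tags in cerebellum and 12 and 11 in hippocampus in hippocampus. Cbln4 had 0 tags in each of the 4 libraries. Presynaptic neurexins, which cerebellins bind, differed less, with log2 ratios of 0.79 for Nrxn3 and 0.70 for Nrxn2. Lrrtm3 was higher in cerebellum at 42.8 and 47.2 in cerebellum and 12.6 and 15.6 in hippocampus (log2 ratio 1.67 ± 0.23 SE, adjusted p = 1.81e-07). Lrrtm1 was higher in hippocampus at 10.1 and 7.26 in cerebellum and 150.3 and 162 in hippocampus (log2 ratio -4.17 ± 0.21 SE, adjusted p = 6.68e-19). Bai2, an adhesion receptor, was at 76.4 and 58.5 in cerebellum and 468 and 521 in hippocampus (log2 ratio -2.88 ± 0.15 SE, adjusted p = 4.14e-18), whereas Nlgn2, the neuroligin of inhibitory synapses, at 136 and 157 in cerebellum and 151 and 157 in hippocampus, did not pass. Without the knockout cerebellum library Nrxn2 and Cbln2 were not called, and Cbln2 was not called by DESeq2.

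Of 41 vesicle and release genes 8 were higher in cerebellum and 23 in hippocampus, against 17.9% and 21.1% of all genes. The 23 became 15 without the knockout cerebellum library. The calcium sensors of release differed by region: Syt2, the fast synaptotagmin of hindbrain synapses, had 137 and 120 tags in cerebellum and 3 and 3 in hippocampus (log2 ratio 5.19 ± 0.36 SE, adjusted p = 1.02e-14), while Syt1 was at 322 and 271 in cerebellum and 919 and 817 in hippocampus (log2 ratio -1.55 ± 0.12 SE, adjusted p = 6.18e-13). Syt5 was at 9.23 and 8.07 in cerebellum and 159 and 141 in hippocampus (log2 ratio -4.11 ± 0.20 SE, adjusted p = 6.74e-19). Unc13c, a priming factor of granule neuron terminals, was at 168 and 201 in cerebellum and 13.9 and 13.7 in hippocampus (log2 ratio 3.73 ± 0.19 SE, adjusted p = 1.07e-18). Doc2a had 1 and 0 tags in cerebellum and 61 and 56 in hippocampus, 133-fold (95% counting interval 23.4 to 5298) higher in hippocampus, and Stx1a was at 1.68 and 3.63 in cerebellum and 63.3 and 49.8 in hippocampus (log2 ratio -4.37 ± 0.32 SE, adjusted p = 3.77e-14). The synapsins Syn1 and Syn2 were higher in hippocampus with log2 ratios of -1.18 and -1.57. Core parts of the release machine such as Snap25, at 2370 and 2431 in cerebellum and 1972 and 2372 in hippocampus, and Syt7, at 461 and 456 in cerebellum and 445 and 557 in hippocampus, did not pass. Rab3a, at 1477 and 1561 in cerebellum and 1942 and 1408 in hippocampus, did not pass either, and its 2 hippocampus libraries lay on either side of the cerebellum libraries.

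Postsynaptic density and plasticity genes were higher in hippocampus in 26 of 36 tested and higher in cerebellum in 5 (median -1.48). The shares over all genes were 21.1% and 17.9%. The 5 became 2 with DESeq2 and without the wild-type cerebellum library, and Fos was among those lost in both. Dlg4 (PSD-95), the main scaffold, was at 464 and 404 in cerebellum and 872 and 1060 in hippocampus (log2 ratio -1.15 ± 0.13 SE, adjusted p = 2.07e-09). Rgs14, which marks CA2, had 1 and 0 tags in cerebellum and 156 and 106 in hippocampus, 298-fold (95% counting interval 53 to 11810) higher in hippocampus. Kalrn, an exchange factor for small GTPases in spines, was at 13.4 and 13.7 in cerebellum and 174 and 199 in hippocampus (log2 ratio -3.78 ± 0.18 SE, adjusted p = 4.07e-19), Synpo, synaptopodin, at 12.2 and 15.7 in cerebellum and 188 and 174 in hippocampus (log2 ratio -3.69 ± 0.19 SE, adjusted p = 1.14e-18). Dlgap2 was at 1.26 and 0.807 in cerebellum and 50.7 and 52.3 in hippocampus (log2 ratio -5.57 ± 0.38 SE, adjusted p = 5.1e-15). Bdnf, the growth factor, was at 26 and 28.2 in cerebellum and 87.5 and 99.1 in hippocampus (log2 ratio -1.78 ± 0.18 SE, adjusted p = 1.19e-10). The activity-regulated gene Arc was at 19.7 and 17.4 in cerebellum and 53.8 and 83.5 in hippocampus (log2 ratio -1.87 ± 0.21 SE, adjusted p = 2.22e-09). Fos and Dusp1, also activity-regulated, were higher in cerebellum at 16.8 and 37.1 in cerebellum and 11.2 and 11.2 in hippocampus and 37.3 and 46.4 in cerebellum and 17.5 and 17.1 in hippocampus, and the wild-type cerebellum library held more Fos than the knockout one. Ppp1r1b (DARPP-32) was higher in cerebellum at 194 and 195 in cerebellum and 58.3 and 46.4 in hippocampus (log2 ratio 1.9 ± 0.15 SE, adjusted p = 6.86e-13). Its relative Ppp1r1a was higher in hippocampus at 27.3 and 33.1 in cerebellum and 260.3 and 268 in hippocampus (log2 ratio -3.13 ± 0.16 SE, adjusted p = 1.94e-18). Shank1 and Shank3 did not pass the test.

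Adhesion and guidance genes gave 15 calls in cerebellum and 33 in hippocampus of 54. DESeq2 called 8 of the 15, and it did not call Cdh9, Robo3 or Ephb2, described next. Cntn6, a contactin, was at 38.2 and 41.2 in cerebellum and 0.897 and 1.95 in hippocampus (log2 ratio 4.77 ± 0.39 SE, adjusted p = 8.65e-13), and the cadherins Cdh15 at 55.4 and 49.2 in cerebellum and 5.38 and 7.33 in hippocampus (log2 ratio 3.04 ± 0.27 SE, adjusted p = 6.71e-12) and Cdh22 at 75.5 and 60.9 in cerebellum and 13.5 and 8.3 in hippocampus (log2 ratio 2.64 ± 0.22 SE, adjusted p = 2.75e-12). Cdh9, a cadherin of dentate and CA3 synapses, had 0 and 0 tags in cerebellum and 26 and 15 in hippocampus, at least 15.5-fold higher in hippocampus. Receptors of the Unc5 family for netrins ran in opposite directions: Unc5b was at 82.7 and 73.8 in cerebellum and 17.5 and 19.5 in hippocampus (log2 ratio 2.08 ± 0.20 SE, adjusted p = 4.58e-11). Unc5a was at 46.2 and 49.2 in cerebellum and 202 and 192 in hippocampus (log2 ratio -2.04 ± 0.15 SE, adjusted p = 6.45e-14). Slit1, a repellent ligand, was at 2.52 and 1.61 in cerebellum and 193 and 139 in hippocampus (log2 ratio -6.29 ± 0.26 SE, adjusted p = 3.54e-21), and Robo3, of the Robo receptor family, had 0 and 0 tags in cerebellum and 27 and 31 in hippocampus, at least 22-fold higher in hippocampus. The semaphorin receptors Nrp1 and Nrp2 were at 20.1 and 23.8 in cerebellum and 243 and 238 in hippocampus and 6.71 and 4.44 in cerebellum and 45.3 and 46.9 in hippocampus. Ephrin receptors Epha4, at 16.4 and 20.6 in cerebellum and 232 and 300.3 in hippocampus (log2 ratio -3.84 ± 0.17 SE, adjusted p = 3.69e-20), Epha5 and Epha7 were higher in hippocampus, and Ephb2, at 36.5 and 29.9 in cerebellum and 16.2 and 16.1 in hippocampus (log2 ratio 1.04 ± 0.24 SE, adjusted p = 0.000606), in cerebellum.

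Nuclear receptor and hormone transport genes split evenly, 11 in each direction of 29. DESeq2 called 7 and 5 of them, and Esrrg, Thrb, Nr3c2 and Rxrg were among those it did not call. The orphan receptors Esrrb, Esrrg and Esrra were higher in cerebellum, in the same direction as Rora, with log2 ratios of 2.91, 1.76 and 1.02. Nr3c2, the mineralocorticoid receptor of hippocampal neurons, had 1 and 3 tags in cerebellum and 15 and 18 in hippocampus (log2 ratio -3.17 ± 0.60 SE, adjusted p = 4.83e-05), while the glucocorticoid receptor Nr3c1 was at 99 and 85.5 in cerebellum and 75.4 and 80.6 in hippocampus and did not pass. The thyroid hormone receptors Thra and Thrb were higher in hippocampus, with log2 ratios of -1.14 and -1.67. Rxrg had 1 and 1 tags in cerebellum and 13 and 12 in hippocampus, 14.2-fold (95% counting interval 3.54 to 124) higher in hippocampus.

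Genes outside the lists showed the same range. Among those at 10 CPM or more in both libraries of the higher region, the largest called ratios in cerebellum included Dao, D-amino acid oxidase, known from cerebellar astroglia, with 707 and 869 tags in cerebellum and 2 and 8 in hippocampus (log2 ratio 7.08 ± 0.25 SE, adjusted p = 7.86e-23), Hes3, a repressor of the hairy family, with 123 and 154 tags in cerebellum and 0 and 2 in hippocampus, 122-fold (95% counting interval 33.4 to 1011) higher, and Epha8, an ephrin receptor, with 72 and 78 tags in cerebellum and 0 and 1 in hippocampus, 132-fold (95% counting interval 23.3 to 5246) higher. Il22 and the near-identical Iltifb were also among them, with 44 and 43 and 151 and 193 tags in cerebellum and 0 and 2 in the hippocampus libraries together, and the counting may have split tags between these copies. In hippocampus Lmo3, a LIM-only cofactor, had 0 and 0 tags in cerebellum and 107 and 93 in hippocampus, at least 75.8-fold higher, Cpne7, a copine, had 2 and 4 tags in cerebellum and 863 and 636 in hippocampus (log2 ratio -8.08 ± 0.26 SE, adjusted p = 3.79e-24), and Spink8, a protease inhibitor, 1 and 0 tags in cerebellum and 137 and 133 in hippocampus, 307-fold (95% counting interval 54.6 to 12170) higher. Gda, guanine deaminase, had 3 and 2 tags in cerebellum and 349 and 249 in hippocampus (log2 ratio -7.0 ± 0.30 SE, adjusted p = 8.53e-21). DESeq2 did not call Lmo3.

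Among genes outside the lists, the most abundant of those that differed at least 2-fold were of another kind. In cerebellum they included Ckb, a brain creatine kinase, at 1936 and 1882 in cerebellum and 777 and 769.7 in hippocampus, Gng13, a G protein gamma subunit, at 1346 and 1459 in cerebellum and 159 and 159 in hippocampus (log2 ratio 3.14 ± 0.13 SE, adjusted p = 5.91e-21), Cadm3 and Metrn, the last at 1081 and 1268 in cerebellum and 264 and 198 in hippocampus. In hippocampus they were Ncdn, neurochondrin, at 533 and 573 in cerebellum and 3662 and 3286 in hippocampus (log2 ratio -2.65 ± 0.12 SE, adjusted p = 6.68e-20), Cpe, a peptide-processing enzyme, at 1027 and 999 in cerebellum and 3000 and 2914 in hippocampus, the protease inhibitor Cst3 at 733 and 849.8 in cerebellum and 2456 and 2224 in hippocampus, the imprinted gene Nnat at 593 and 503 in cerebellum and 2235 and 2061 in hippocampus and Aplp1. For comparison, of 19 tested genes that serve as references in most tissues 10 did not pass, 8 were higher in hippocampus and 1, Tbp, in cerebellum. Over all tested genes 21.1% were higher in hippocampus and 17.9% in cerebellum, so the share of reference genes called in hippocampus was above that of all genes. The 8 became 2 with DESeq2 and without the knockout or the wild-type cerebellum library, and Tbp was not called in these 3 fits. Log2 ratios of the 19 genes ran from -1.18 (Ywhaz) to 0.84 (Tbp). Their median was -0.11 here and 0.02 under scaling to library totals. Gapdh, at 5811 and 5784 in cerebellum and 7167 and 7040 in hippocampus, is counted almost wholly in rows shared with copies and is uncertain.

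The regional ratio was also taken in each genotype alone. Of all 12013 tested genes, 9253 had a ratio on the same side of 0 in the knockout and wild-type pools. Among the 4682 called genes 4657 did, a count that the call itself favours, since the fit calls genes on which the pools agree. Among 11871 genes with tags in all 4 libraries, the median absolute difference between the knockout and wild-type log2 ratios was 0.30. Of the 699 tested list genes with both ratios 612 were within 1 log2 unit in the 2 pools. Pcp2 and Car8 had larger ratios in the knockout pool, whose hippocampus library held fewer of their tags: Pcp2 was 8.05 against 6.6 and Car8 7.0 against 5.66. Of the 25 called genes with opposite signs, 19 were rich in liver.

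Hepatocyte markers are the clearest of these. Alb, albumin (chr5:90460870-90476602), was at 243 and 407 in cerebellum and 206 and 1204 in hippocampus, highest in the wild-type hippocampus library and next in the wild-type cerebellum library. It was called higher in hippocampus (log2 ratio -0.72 ± 0.20 SE, adjusted p = 0.00458), although its log2 ratio was 0.24 in the knockout pool and -1.57 in the wild-type pool. Hepatocyte genes gave 14 calls of 19 in hippocampus and 1, Ttr, in cerebellum. Without the wild-type hippocampus library 10 were called higher in cerebellum and none in hippocampus. Without either cerebellum library, or with DESeq2, none was called higher in hippocampus, and without the knockout hippocampus library 17 were. Of 165 tested transcripts that exceeded both brain tissues 20-fold or more in liver, 57 were called higher in hippocampus and 7 in cerebellum. Leaving all 165 out gave 2230 and 2556 calls.

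**Figure D4:**
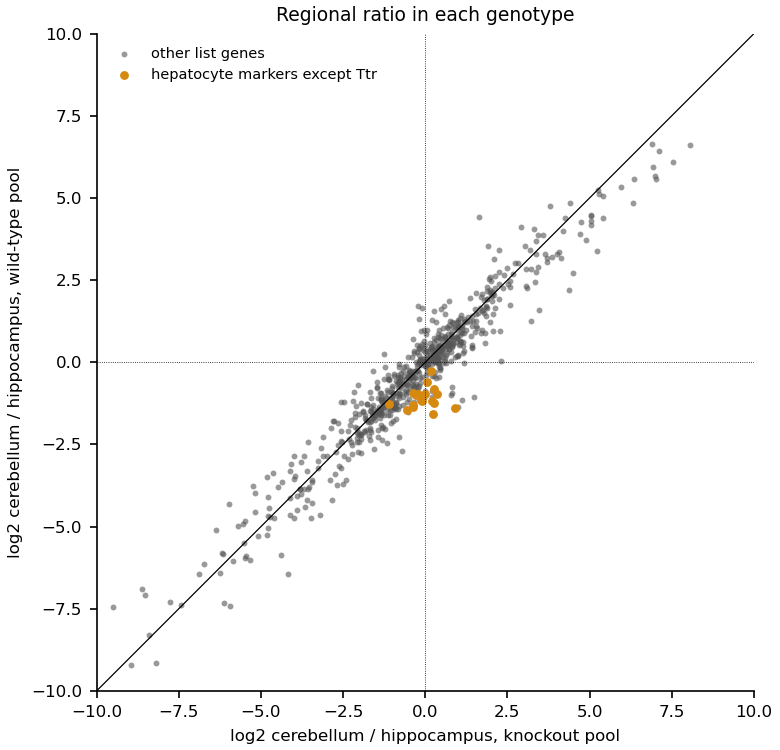
Log2 ratio of cerebellum to hippocampus in the wild-type pool against the same ratio in the knockout pool, for the 699 tested list genes with tags in all 4 libraries. Points follow the line of equality from about -9.5 to 8.05, while the 18 hepatocyte markers other than Ttr (orange) all lie below it, with lower ratios in the wild-type pool.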

How the data were processed

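The authors' deposited combined table gives, for 6 libraries, unscaled counts of sense and of antisense tags for each RefSeq record, per the file headers. CASAVA 1.8.2 was the base caller and the build was mm9, per the submitters' processing notes, while the table's headers name a GRCm38 genomic set, and no aligner is named in the labels or headers. Sense counts of RefSeq RNA rows were summed per gene symbol to 23931 features, 4894 of them joint features of several named genes whose sequences the tags could not separate. Tags on genomic contigs and unmatched tags belong to no gene and entered neither library sizes nor tests. In the 4 libraries they took 19.4% to 21.3% and 7.39% to 8.83% of all tags, and antisense tags took 9.55% to 10.5%. A gene whose tags matched only genomic sequence would be counted too low, and this was not tested for any gene.

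Cerebellum and hippocampus libraries (1 per genotype) were compared with edgeR 4.0.16 (TMM scaling, filterByExpr by tissue, quasi-likelihood test, tissue plus genotype as block, 1 residual degree of freedom) with R 4.3.3, and p-values were adjusted by Benjamini-Hochberg over 12013 genes at 0.05. The block stands for the pool, since titles give a genotype the same animal numbers in both tissues. That the labels mean the same animals is read from these numbers. On simulated counts for 12013 genes the fit recovered 20% of 50 genes changed 1.5-fold, 70% at 2-fold, 98% at 4-fold and 100% at 8-fold, with 5 false calls. The simulation took each gene's spread from the fit itself, held no genotype difference and changed far fewer genes than were called in the data. These rates may therefore not hold for the data. Counting intervals are exact (Clopper-Pearson, 95%) and cover counting error only, and 0 tags were set to 3 over a tissue's libraries for a bound. No difference within a tissue was tested, since there is 1 library per genotype.

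The comparison, the lists and the alternatives were chosen with earlier results of these data known. Any list member could be named, and outside the lists the rule took the 15 highest and 15 lowest called ratios at 10 CPM or more in both libraries of the higher tissue, leaving out clone, predicted and joint names, and the 5 most abundant called genes in each direction at 2-fold or more. Not all are printed, and a few genes are not reported here. Alternatives were other scalings and filters, no block, all 6 libraries, each library left out, DESeq2 1.42.0, limma 3.58.1 voom, rows of 1 symbol, the highest row per symbol, and omission of transcripts 20-fold or more above brain in liver. Promoters and positions were looked up by symbol in RefSeq tables of GRCm38.p6.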

Additional observations from a re-analysis of the deposited data

Results flagged for a closer look

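Alb and Rab3a had regional ratios of opposite sign in the 2 genotypes, with both counting intervals off 0, and this difference between genotypes was not tested, since each ratio rests on 1 library per tissue. For Alb the log2 ratio of cerebellum to hippocampus was 0.24 in the knockout pool (95% counting interval 0.06 to 0.42) and -1.57 in the wild-type pool (-1.67 to -1.46). For Rab3a, a small GTPase of synaptic vesicles, it was -0.39 (-0.46 to -0.33) in the knockout pool and 0.15 (0.08 to 0.22) in the wild-type pool.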

How the results depend on the processing

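DESeq2 called 749 genes higher in cerebellum and 1060 higher in hippocampus, all of them also called by edgeR, and 372 of the list members. Leaving out each library in turn gave 1016 to 1972 and 1253 to 2412 calls. These fits drop the genotype term as well, because no residual degree of freedom remains with it, so the library and the term were changed together. No fit turned a called gene named above other than Alb, whose ratio was 0.65 without the wild-type hippocampus library. The fit without the replicate block (no genotype term) called 1892 and 2258, within 1.5 times of the counts with it, and 6 of the named genes lost their call. Of 252 named genes that were called, 47 lost the call in at least 1 alternative, 39 of them with DESeq2, which calls fewer genes over all. The cause of these losses was not tested. The 27 named genes that had not passed lie near 0, and for most of the following the sign is not settled. Under scaling to library totals the log2 ratio became 0.099 for Adora1, 0.094 for Foxj1, 0.070 for Gabbr1, 0.11 for Gabbr2, 0.10 for Gad2, 0.058 for Nlgn2, 0.0075 for Rab3a, 0.012 for Syt7. With DESeq2 the log2 ratio became -0.0041 for Mrc1. With each library left out in turn the ratio ran from -0.16 to 0.086 for Adora1, -1.89 to 0.65 for Alb, -0.17 to 0.36 for Chga, -0.056 to 0.53 for Etv6, -0.25 to 0.18 for Foxj1, -0.15 to 0.053 for Gabbr1, -0.23 to 0.20 for Gabbr2, -0.19 to 0.14 for Gad2. It ran from -0.093 to 0.43 for Hcn2, -0.70 to 0.52 for Itpr2, -0.050 to 0.075 for Kcnma1, -0.69 to 0.59 for Mrc1, -0.18 to 0.052 for Nlgn2, -0.36 to 0.10 for Rab3a, -0.027 to 0.20 for Shank1, -0.098 to 0.21 for Shank3, -0.29 to 0.034 for Syt7. Over all tested genes, recovery of simulated 1.5-fold changes was 20%, and it was not split by abundance. The 2 pools per tissue, and animals shared between tissues, leave the spread between animals unknown.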

Other observations

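Marker lists of midbrain, of deep cerebellar nuclei and hindbrain, of thalamus and hypothalamus and of striatum and neocortex held 5 to 12 tested genes each. Some of their genes, such as Zic1, Rora and Calb1, are also on cerebellar or hippocampal lists. Of 6 tested midbrain markers 3 were higher in cerebellum and 1 in hippocampus. Th, the enzyme that starts dopamine synthesis, had 15 and 33 tags in cerebellum and 1 and 1 in hippocampus, 21.1-fold (95% counting interval 5.53 to 179) higher in cerebellum, and Aldh1a1, an aldehyde dehydrogenase, was at 102 and 142 in cerebellum and 31.9 and 35.7 in hippocampus (log2 ratio 1.85 ± 0.17 SE, adjusted p = 1.46e-11). Of 5 tested markers of deep cerebellar nuclei and hindbrain 2 were higher in each region, and Hox genes of the hindbrain had at most 1 tag per library. Thalamus and hypothalamus markers gave 5 calls in cerebellum and 2 in hippocampus of 10, and Lhx9, a LIM factor, was at 0.839 and 0.807 in cerebellum and 9.87 and 11.7 in hippocampus (log2 ratio -3.63 ± 0.56 SE, adjusted p = 1.59e-06). Striatum and neocortex markers gave 4 and 5 of 12.

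Of 12 tested markers of Cajal-Retzius cells and adult neurogenesis 6 were higher in cerebellum and 2, Sox11 and Sox4, in hippocampus. Sox4 was not called by DESeq2 or without the knockout cerebellum library. Sox11, a factor of immature neurons, was at 6.29 and 4.84 in cerebellum and 26 and 32.2 in hippocampus (log2 ratio -2.37 ± 0.31 SE, adjusted p = 5.71e-08), while Dcx, doublecortin, had too few tags for the test, with 1 and 2 tags in cerebellum and 9 and 14 in hippocampus. Meningeal genes were higher in cerebellum in 7 of 10 and higher in hippocampus in 1, Dcn. Ptgds, prostaglandin D synthase, was at 2157 and 1609 in cerebellum and 516 and 579.7 in hippocampus (log2 ratio 1.77 ± 0.13 SE, adjusted p = 5.23e-14). DESeq2 called 3 meningeal genes in cerebellum, the number also found without the knockout cerebellum library, and 5 were called without the wild-type one.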
